A study of Mus musculus with 12 samples.

Results

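TFIID is the multi-subunit general transcription factor that carries the TATA-binding protein to core promoters, and its subunits other than that protein are called TAFs. The genes described here are Taf1, Taf2, Taf3, Taf4b, Taf5, Taf6, Taf7, Taf8, Taf9 and Taf10, taken by gene symbol from gene-level tables of 20409 mouse genes; 9 of the 10 were found, and Taf9 was not analysed here. Each was followed through 3 ORFtag screens in clonal mouse embryonic stem cell reporter lines. ORFtag uses a retroviral cassette that integrates at many genomic sites and holds a promoter, a tag and a splice donor. An insertion upstream of a coding exon on the gene's strand can splice the tag onto the protein made from that gene.

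In the activator screen the tag was TetR, the Tet repressor DNA-binding protein, which brought the fusion to Tet operators before a minimal promoter and GFP, and GFP-positive cells were sorted. The repressor screen used TetR with an active reporter, and cells that had lost GFP were sorted. In the PTGR screen (post-transcriptional gene regulation) the tag was λN, an RNA-binding peptide that brought the fusion to BoxB hairpins in a reporter mRNA. Cells with low GFP were sorted repeatedly and expanded between sorts. Hydroxytamoxifen was then given to remove the BoxB sites through Cre, and a last sort took cells with higher GFP. Contrasts with the PTGR screen therefore also set different sorting schemes side by side. The PTGR reporter was integrated at random, while the TetR reporters sat at a chosen locus. Each screen had 2 sorted and 2 unsorted libraries, the unsorted ones being G418-selected cells of the same transduction that were not sorted, so all libraries came from cells carrying insertions. Because each line was 1 clone with 1 reporter, the values describe those reporters. The paper describes biological replicates and independent transductions carried out in different laboratories, which the labels do not state. P-values from models of separate libraries (edgeR, DESeq2) take the spread between these samples into account. Those of Fisher's exact test come from summed libraries and do not use that spread.

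Values are unique insertion positions assigned to a gene at most 200 kb from the exon they could splice to. Sense insertions are those on the gene's strand, which can make a fusion. Reversed insertions are those assigned after the strand was flipped, which cannot make a fusion to that gene. The sorted libraries held 14705 to 60980 sense insertions and the unsorted ones 54088 to 233799, and the 6 unsorted libraries, summed, are called the background (1022126 insertions). All 3 comparisons with the background share these 6 libraries. The repressor sorted libraries had 18.2% of the positions of replicate 1 also in replicate 2, where the activator pair had 1.76% and the PTGR pair 0.546%. Models of separate libraries treat the repressor pair as separate samples all the same, so their p-values in that screen do not allow for this sharing. Rates are given per 10000 insertions of a library, and intervals and limits cover counting error only.

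Within TFIID several subunits pair through histone folds. Taf6 pairs with Taf9, Taf4 or its paralog Taf4b with Taf12, and both Taf3 and Taf8 with Taf10. Taf1 is the largest subunit, carries bromodomains and is bound by Taf7, Taf2 contacts DNA around the start site, Taf5 is a WD40-repeat scaffold, and the PHD finger at the C-terminal end of Taf3 reads trimethylated lysine on histone H3. Taf4b is best known from germ cells of the ovary and testis.

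Which part of a subunit a tag can join depends on the acceptor exon. Each of the 1284 sense insertions at these genes across the 12 libraries lay upstream of an acceptor of the GENCODE annotation with the same exon number. The acceptors below, read from the GRCm38 genome, are those that took most of the insertions at 4 of the subunits, with 20 intronic and 10 exonic bases, 5′ to 3′ on the gene's strand. The capitals mark the AG at the end of the intron.
Taf1 exon 2, chrX:101533475-101533504, plus strand: tcatgctgtccccttttcAGgagtgcaaga
Taf8 exon 2, chr17:47501431-47501460, minus strand: tctgggcttctgatttccAGagaccgggaa
Taf5 exon 2, chr19:47070961-47070990, plus strand: gtcattcattttttaaacAGttgcaagtgt
Taf3 exon 2, chr2:10042660-10042689, minus strand: tgcttttgaccttgtttcAGatggccgaac
Taf3 exon 3, chr2:9952936-9952965, minus strand: gcccttttcaccctttgcAGaggaggaaga
Taf3 exon 5, chr2:9921292-9921321, minus strand: ggctcttttctccttggcAGtgttatcagc
Exon 2 was the acceptor of 451 sense insertions at Taf1 and of 549 at Taf8 over the 12 libraries. The coding sequence upstream of it makes up 3.17% of Taf1 and 4.22% of Taf8, so a tag joined there would precede nearly the whole protein. At Taf5 the exon 2 acceptor lies after 23.4% of the coding sequence. At Taf3 the acceptors of exons 2, 3 and 5 lie after 5.94%, 14.6% and 83.1%.

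The supply of insertions differed widely between the subunits. In the background Taf8 had 493 sense insertions and Taf1 had 405, more than 99.2% and 98.4% of genes. Taf7 had 90, Taf5 had 35, Taf3 had 32, Taf6 had 23, Taf4b had 21 and Taf2 had 5, beside a median of 15 over all genes. Taf10 had 0 in the unsorted libraries and 0 in the sorted ones, so no sense value could be had for it. Most insertions at Taf1, Taf8 and Taf7 were far from the gene: their median distance to the acceptor in the background was 50701 bp at Taf1, 27176 bp at Taf8 and 141158 bp at Taf7.

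In the activator screen Taf4b and Taf3 were enriched in the GFP-positive cells. These were 2 of the 5 subunits with the 3 sorted insertions that the test asks for, where 4.64% of all tested genes were called by the same rule (one-sided Fisher's exact test, adjusted p below 0.001 over all tested genes, log2 odds ratio of at least 1). The plot of rates by library shows both genes above their unsorted libraries, while Taf1, Taf7 and Taf8, with many more insertions in the background, lay near theirs. The median log2 odds ratio was 0.09 over the 5 tested subunits and -0.14 over all tested genes. Because the test asks for sorted insertions, genes with few background insertions, such as Taf3 and Taf4b, enter it only when high in sorted cells. The count of 2 of 5 and both medians are therefore set in part by this filter. The same holds for the subunits tested by Fisher's exact test below.

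**Figure D1:**
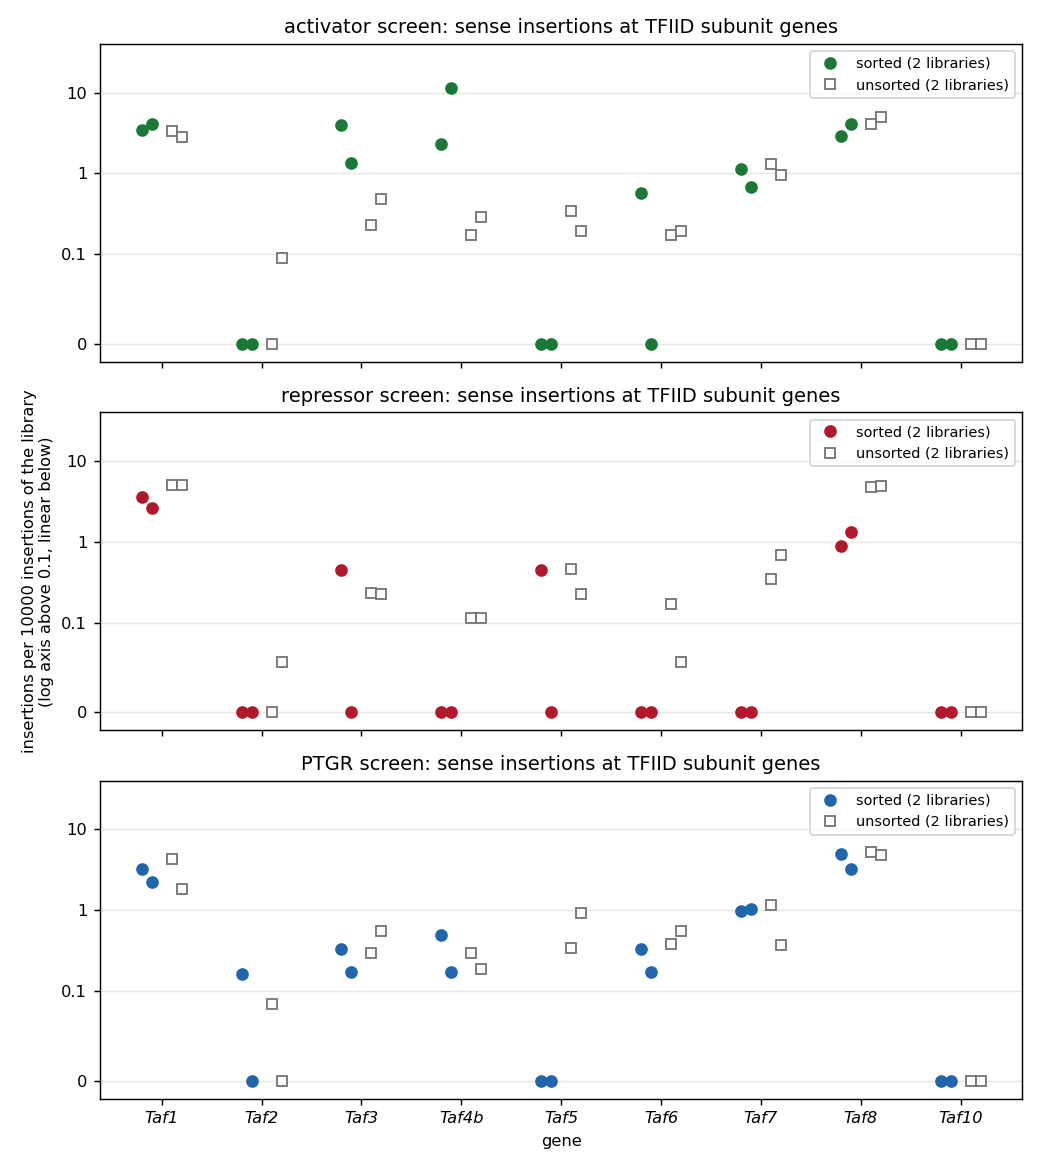
Sense insertions per 10000 insertions of a library (vertical axis, logarithmic above 0.1 and linear below) at 9 TFIID subunit genes, with filled circles for the 2 sorted and open squares for the 2 unsorted libraries of each screen. In the activator screen the sorted libraries of Taf3 (4.02 and 1.36) and of Taf4b (2.30 and 11.6) lie above the unsorted libraries of all 3 screens.

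Taf4b lies on chromosome 18 (GRCm38, 14783245 to 14900359, plus strand). It had 4 sense insertions in sorted replicate 1 and 17 in replicate 2, which are 2.30 and 11.6 per 10000. The unsorted pairs held 3 and 6 (activator), 2 and 2 (repressor) and 7 and 1 (PTGR), from 0.113 to 0.299 per 10000. Both sorted libraries were thus above all 6 unsorted ones, with a wide gap between the replicates. The share of all genes separated in this way, here and below, was not computed. The mean was 6.93 ± 6.55 (SD, n = 2) per 10000 in the sorted against 0.195 ± 0.0819 (SD, n = 6) in the unsorted libraries. The pooled share was 31.8 times that of the background (95% interval 16.5 to 61.3), with a log2 odds ratio of 4.99 ± 0.45 (SE from counts) and a Fisher adjusted p of 1.58e-19. With the spread between libraries in the model, edgeR set the sorted pair against the unsorted pair of its own screen and gave a log2 difference of 4.70 and an adjusted p of 3.59e-06 (1 of 6 subunits tested, 1.45% of genes called as higher). The edgeR test asks for at least 10 insertions over the libraries of the screen. The unsorted pair held 3 and 6, so Taf4b entered the edgeR test through its sorted insertions. The count of 1 of 6 is therefore set in part by this filter. Without sorted replicate 2 the Fisher adjusted p was 0.0116, above the threshold.

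The Taf4b insertions in the sorted cells lay at the start of the gene. All 21 had exon 2 as acceptor, and 18 were within 2 kb of the annotated start. In the background 11 of 21 had exon 2 as acceptor and 7 were within 2 kb, the others reaching 80054 bp into the gene. The coding sequence before exon 2 is 13.3% of the Taf4b protein. The 21 were distinct positions, none of them in both replicates. They formed 18 groups when positions within 10 bp of each other were joined, and 1 position of replicate 1 and 5 of replicate 2 were also in an unsorted library.

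**Figure D2:**
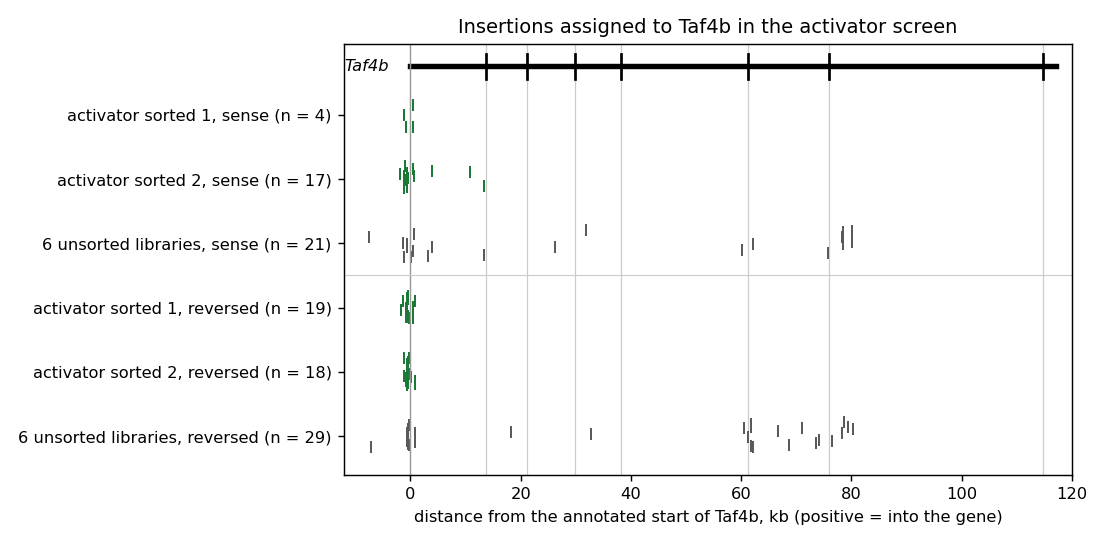
Positions of insertions assigned to Taf4b, as distance in kb from the annotated start of the gene, in the 2 sorted libraries of the activator screen (green) and the 6 unsorted libraries (grey), sense above and reversed below. The black bar is the gene, its ticks are the acceptors that received insertions, and vertical scatter within a row carries no value. All 37 reversed and 18 of 21 sense insertions of the sorted libraries fall within 2 kb of the start.

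Taf3 had 7 sense insertions in sorted replicate 1 and 2 in replicate 2 of the activator screen, which are 4.02 and 1.36 per 10000. The unsorted pairs held 4 and 10 (activator), 4 and 4 (repressor) and 7 and 3 (PTGR), or 0.226 to 0.555 per 10000. The groups did not overlap, and the share of all genes separated in this way was not computed. The pooled share was 8.95 times the background (95% interval 3.76 to 19.2), with a log2 odds ratio of 3.16 ± 0.54 (SE from counts) and a Fisher adjusted p of 7.64e-05. The call rested on a few insertions. With positions within 10 bp counted as 1, 7 insertions were left and the Fisher adjusted p was 0.00242. Without sorted replicate 1 only 2 were left, too few for the test. By edgeR the log2 difference was 2.85 with an adjusted p of 0.0633, above 0.05.

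Along Taf3 the sorted insertions lay upstream of exons 2 and 3. Of the 9, 5 had exon 2 as acceptor and 4 had exon 3, and 0 had a later exon. In the background 13 of 32 (40.6%, 95% Wilson interval 25.5 to 57.7) preceded exon 2 or 3, and 17 had exon 5. A tag at exon 5, whose acceptor sequence is given above, would join the last part of the protein, with the PHD finger, whereas a tag at exon 2 or 3 would precede most of it. No reversed insertion was found at Taf3 in the activator sorted libraries, which allows up to 1.01 per 10000, while the background had 33, or 0.326 per 10000. This difference was therefore not detectable at this depth.

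**Figure D3:**
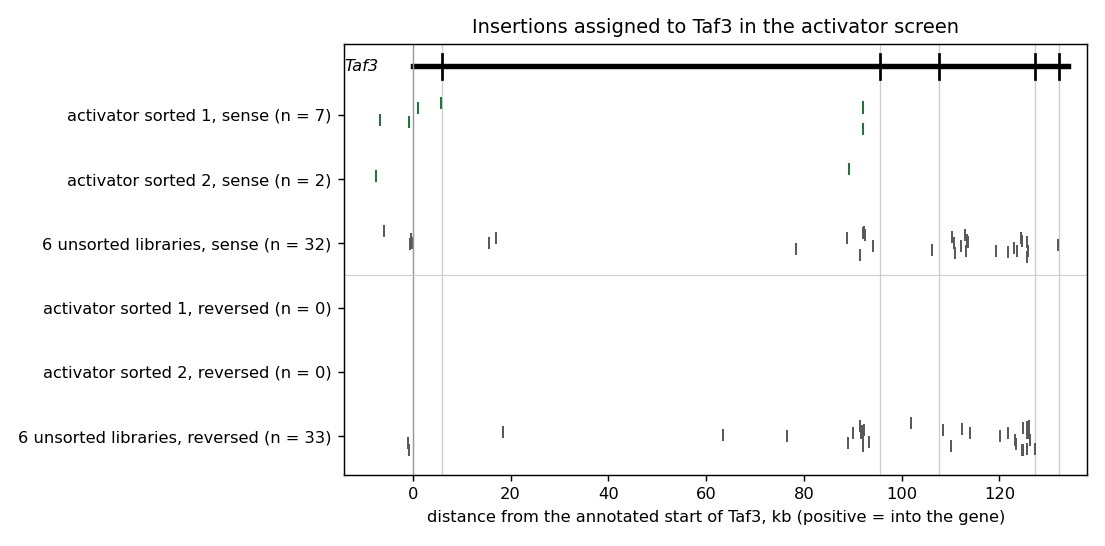
Positions of insertions assigned to Taf3, as distance in kb from the annotated start, in the sorted libraries of the activator screen (green) and the 6 unsorted libraries (grey), sense above and reversed below. The ticks on the gene bar are acceptors. The 9 sorted sense insertions lie before exon 2 or exon 3, and the background cluster beyond 100 kb has no counterpart in them.

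The other subunits were not enriched in the activator screen. Taf1 had 6 and 6 sense insertions in the sorted libraries where the background share gives 12.7 in all, a ratio of 0.943 (95% interval 0.483 to 1.67). Taf8 had 5 and 6 where the background gives 15.5, a ratio of 0.710 (0.352 to 1.28). Taf7 had 2 and 1, a ratio of 1.06 (0.215 to 3.20). Taf6 had 1 and 0. For Taf1 and Taf8 the intervals end far below the ratio of 8.95 seen at Taf3. They rest mainly on distant insertions: in the background 4.44% at Taf1 and 1.83% at Taf8 were within 2 kb of the start. Whether such distant insertions make a fusion was not tested. Taf2 and Taf5 had 0 in both sorted libraries, which allows up to 0.935 per 10000, and the exact 95% upper limit of the ratio to the background was 34.7 for Taf2 and 3.54 for Taf5.

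The reversed assignment gave a second value for Taf4b. In the activator sorted libraries it had 19 and 18 reversed insertions, 11.5 and 13.6 per 10000, against 0.174 to 0.391 in the 6 unsorted libraries. The replicates were close and far above all unsorted libraries. These insertions lay at 34 distinct positions, 3 of them in both replicates, and formed 19 groups when positions within 10 bp were joined. Of the positions, 4 of replicate 1 and 6 of replicate 2 were also in an unsorted library. The pooled share was 43.3 times the background (95% interval 25.9 to 73.1) with a Fisher adjusted p of 1.08e-37, and edgeR gave an adjusted p of 9.37e-24 (1 of 6 subunits, 1.03% of genes called as higher). Taf4b was the 1 subunit called among the 3 tested in this direction, where 3.14% of tested genes were called. Of the 132 genes called with sense insertions in the activator screen, 4 (3.03%) were also called with reversed ones, and Taf4b was the 1 subunit among them. Sense insertions made up 36.2% of all insertions at Taf4b in the sorted libraries (95% Wilson interval 25.1 to 49.1), 17.4% in replicate 1 and 48.6% in replicate 2. The background share was 42.0% (29.4 to 55.8), and the intervals overlap.

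These reversed insertions were sense insertions of a gene on the other strand. Ss18, which encodes a subunit of the BAF chromatin remodelling complex, starts 100331 bp from Taf4b and runs away from it. All 37 reversed Taf4b insertions in the sorted libraries counted as sense insertions of Ss18, 102112 to 104576 bp from its acceptor. The 21 sense insertions at Taf4b counted in turn as reversed insertions of Ss18. Ss18 had 98 and 126 sense insertions in the activator sorted libraries and 97 in the background, a ratio of 73.5 (95% interval 57.7 to 94.3), and was called. The 37 shared with Taf4b were 16.5% of the 224, and the other 187 had a ratio of 87.6 (66.0 to 117). Insertions within 2 kb of the Taf4b start in the activator sorted libraries were 4 and 14 in the sense and 19 and 18 in the reversed direction. The part of the nearness to Ss18 in the sense count of Taf4b was not tested.

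In the repressor screen 0 of the 2 tested subunits were called with sense insertions by Fisher's exact test, and 0 had an unadjusted p below 0.05, where 8.18% of tested genes were called. By edgeR 0 of 4 tested were called as higher, where 2.58% of genes were, 1 of the 4 having an unadjusted p below 0.05 (Taf8, lower). Taf1 had 8 and 4 insertions, a ratio of 0.808 (95% interval 0.414 to 1.43). Taf8 had 2 and 2, 0.898 and 1.32 per 10000, below all 6 unsorted libraries, which ran from 4.05 to 5.22. Its ratio was 0.221 (0.0601 to 0.570), and the edgeR log2 difference of -1.86 had an adjusted p of 0.0840. Over all genes in that edgeR test the median log2 difference was -0.99. The 600 genes with 300 or more background insertions, to which Taf8 and Taf1 belong, had a median log2 odds ratio of -1.32 in this screen, beside -2.18 for Taf8 and -0.31 for Taf1. Taf3 and Taf5 had 1 insertion each, and Taf2, Taf4b, Taf6 and Taf7 had 0, which allows up to 0.801 per 10000. The exact 95% upper limit of the ratio to the background was 5.24 for Taf4b and 1.14 for Taf7.

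Reversed insertions at Taf5 were high in the repressor screen. They numbered 46 and 24 in the sorted libraries, 25.3 and 18.7 per 10000, against 0.146 to 0.796 in the 6 unsorted libraries. The pooled share was 52.0 times the background (95% interval 35.1 to 77.6). The Fisher adjusted p was 1.50e-74 and that of edgeR 1.74e-48 (1 of 5 subunits, 1.57% of genes called as higher). Taf5 was the 1 subunit called among the 4 tested, where 5.61% of tested genes were called. Sense insertions at Taf5 in the same libraries were 1 and 0.

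All 70 of these insertions were sense insertions of Pcgf6, whose start lies 16840 bp from that of Taf5 on the opposite strand. Pcgf6 encodes a subunit of a variant Polycomb repressive complex. It had the same 46 and 24 insertions and 43 in the background, a ratio of 44.4 (30.0 to 66.5), and was called. The plot of Taf5 insertions shows most of them in the start region of Pcgf6, at a median of -15135 bp from the Taf5 start. Of the 70, 53 were within 2 kb of the Pcgf6 start. Of the 61 distinct positions, 9 were in both replicates.

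**Figure D4:**
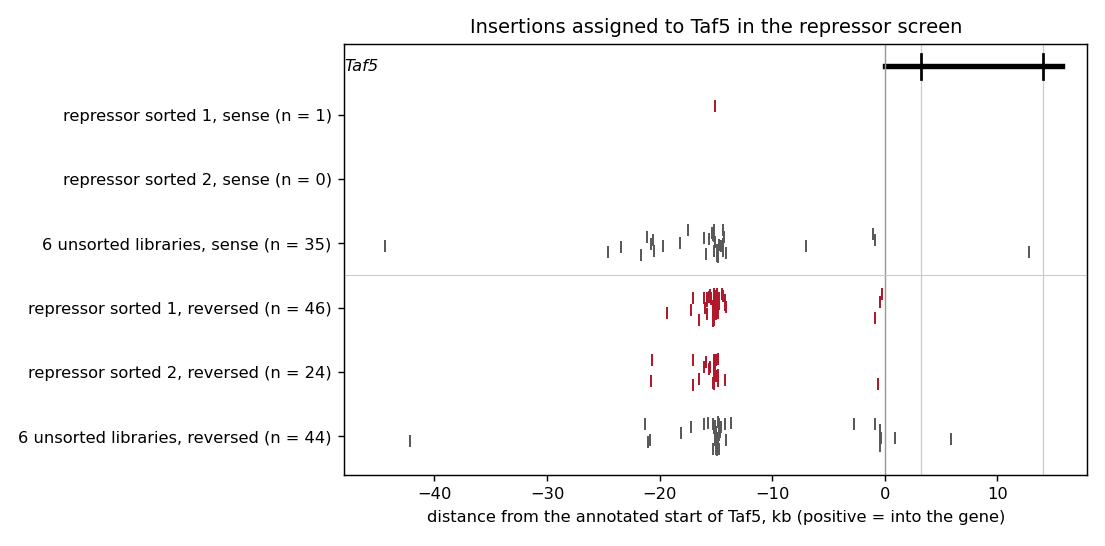
Positions of insertions assigned to Taf5, as distance in kb from the annotated start, in the 2 sorted libraries of the repressor screen (red) and the 6 unsorted libraries (grey), sense above and reversed below. The sorted libraries hold 1 sense and 70 reversed insertions, the latter gathered before the start (median -15135 bp), where the gene Pcgf6 begins on the other strand.

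Taf7 had 0 reversed insertions in repressor sorted replicate 1 and 9 in replicate 2, which were 7.01 per 10000 and fell into 2 groups of positions within 10 bp. The background had 80, and its libraries ran from 0.186 to 0.956 per 10000. The ratio was 3.67 (1.62 to 7.33) with a Fisher adjusted p of 0.0200, and Taf7 was not called. Reversed insertions at Taf8 were below all 6 unsorted libraries in all 3 screens, with ratios of 0.487 (activator), 0.468 (repressor) and 0.524 (PTGR) against the same background. The edgeR adjusted p was 0.412, 0.401 and 0.998, so no difference passed the test. With sense insertions, genes with 300 or more background insertions had median log2 odds ratios of -0.73 (activator), -1.32 (repressor) and -0.24 (PTGR). Their 5th percentiles were -1.88, -2.83 and -0.88. Low values were thus common at heavily hit genes with sense insertions, least so in the PTGR screen. For reversed insertions these figures were not computed, nor was the share of genes below all 6 unsorted libraries.

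In the PTGR screen 0 of the 6 tested subunits were called with sense insertions by Fisher's exact test and 0 had an unadjusted p below 0.05, where 0.666% of tested genes were called. By edgeR 0 of 7 were called as higher, where 0.33% of genes were, and 1 had an unadjusted p below 0.05 (Taf5, which was lower). Taf8 had 30 and 19 insertions, a ratio of 0.850 (95% interval 0.620 to 1.14). Taf1 had 20 and 13, a ratio of 0.697 (0.473 to 0.994), with rates inside the range of the unsorted libraries. Taf7 had 6 and 6, a ratio of 1.14 (0.568 to 2.09). Taf4b had 3 and 1 (ratio 1.63, 0.406 to 4.83), Taf3 had 2 and 1 (0.802, 0.157 to 2.56) and Taf6 had 2 and 1 (1.12, 0.214 to 3.69). Taf2 had 1 and 0. Taf5 had 0 in both, where the background gives 4.09, and the edgeR adjusted p was 0.999. With reversed insertions 0 of 7 were called by Fisher's exact test, 0 of them at an unadjusted p below 0.05, where 0.5% of genes were called, and by edgeR 0 of 7 were called, where 0.226% of genes were, with 1 at an unadjusted p below 0.05 (Taf8, lower). A single reversed insertion at Taf10, in sorted replicate 2, was the 1 insertion seen at that gene in either direction over the 12 libraries.

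**Figure D5:**
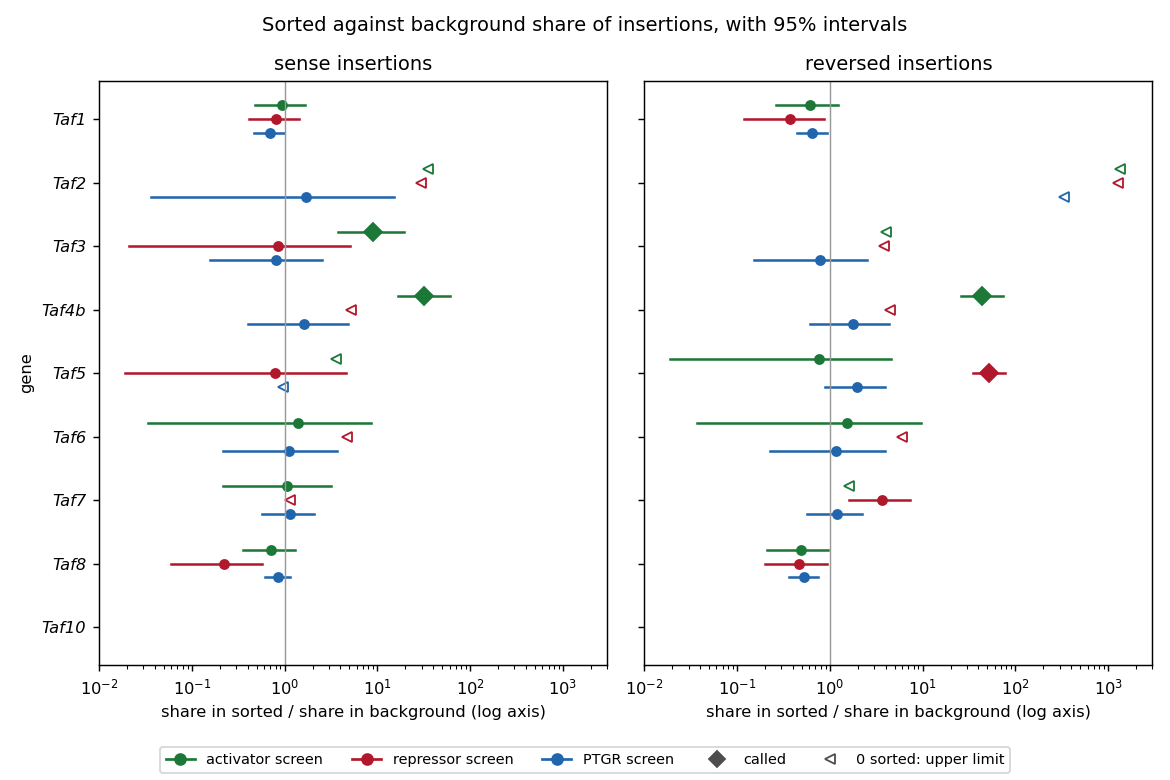
Ratio of the pooled share of insertions in the sorted libraries to that in the background (horizontal axis, logarithmic) for each subunit in the 3 screens, with exact 95% intervals from counts. Diamonds are calls, open triangles are upper limits where the sorted count was 0, and Taf10, with no background insertion, has no value. The calls are Taf3 and Taf4b with sense insertions in the activator screen, Taf4b reversed in the activator screen and Taf5 reversed in the repressor screen.

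The difference between screens was tested directly, as the sorted against unsorted contrast of 1 screen minus that of another, each screen having its own unsorted libraries. With sense insertions Taf4b differed between the activator and the PTGR screen by 4.22 on the log2 scale (edgeR adjusted p = 0.0376), 1 of 7 subunits tested, where 0.71% of all tested genes differed. With the replicate number as a block the log2 difference was 4.05 and the edgeR adjusted p 0.274, above 0.05. Under 16 other settings of this test, the block included, the adjusted p was below 0.05 in 8. Without activator sorted replicate 2 it was 0.899 (log2 difference 2.62), and without PTGR unsorted replicate 1 it was 0.641 (3.59). Between the activator and the repressor screen 0 of 7 passed the edgeR test and 1 had an unadjusted p below 0.05 (Taf4b, adjusted p = 0.394, with 0 insertions in the repressor sorted libraries), where 1.45% of genes differed. Between the repressor and the PTGR screen 0 of 7 passed, with 1 at an unadjusted p below 0.05 (Taf8, adjusted p = 0.320), where 1.38% differed. Over all tested genes the median log2 difference was -1.26 for activator minus PTGR, 0.14 for activator minus repressor and -1.76 for repressor minus PTGR. For Taf3 the log2 difference between the activator and the PTGR screen was 3.09 with an adjusted p of 0.455.

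With reversed insertions Taf4b differed between the activator and the PTGR screen by 4.60 (edgeR adjusted p = 0.000539, 0.644% of genes called) and between the activator and the repressor screen (adjusted p = 0.0209, 1.03% called). With the replicate block the latter adjusted p was 0.0691, above 0.05, and the former 0.0158. Taf5 differed between the repressor and the PTGR screen by 4.52 (adjusted p = 2.29e-06, 0.914% called) and between the activator and the repressor screen by -4.85 (adjusted p = 0.0253). The size of that last value rests on 1 and 0 reversed insertions in the activator sorted libraries, and leaving out 1 library gave -9.35 to -4.06, the former without activator sorted replicate 1, when the count left is 0. Without PTGR unsorted replicate 1 the contrast with the PTGR screen was 4.59 for Taf4b (edgeR adjusted p = 0.471) and 2.94 for Taf5 (adjusted p = 0.589). The contrasts between the activator and the repressor screen lost the call under 5 of 16 settings for Taf4b and 8 of 16 for Taf5.

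Few of the other genes of the basal machinery had enough sense insertions for the test in the activator and repressor screens, where 4.64% and 8.18% of all tested genes were called, and more had enough in the PTGR screen, where 0.666% were. Of the other TFIID subunits and paralogs (Tbp, Taf4, Taf11, Taf12, Taf13, Taf7l, Taf9b, Tbpl1 and Tbpl2 were found), 1 was tested with sense insertions in the activator, 1 in the repressor and 5 in the PTGR screen, with 0 called by Fisher's exact test and 0 at an unadjusted p below 0.05. Of 18 other general transcription factors of RNA polymerase II, 3, 5 and 6 were tested with 0 called, and 0, 0 and 1 had an unadjusted p below 0.05. Of 7 TAF-named genes of other complexes, such as the RNA polymerase I factor subunits Taf1a to Taf1d, 0, 2 and 6 were tested, with 0 called and 0 below 0.05. With reversed insertions 0 genes of these 3 lists were called by Fisher's exact test in any screen, and 0, 1 and 3 had an unadjusted p below 0.05 in the activator, repressor and PTGR screens. Taf4, the paralog of Taf4b that most cells use, had 24 background insertions, close to the 21 of Taf4b. In the activator sorted libraries it had 0, with 1 and 1 in the unsorted libraries of that screen, and the exact 95% upper limit of the ratio to the background was 5.29. The difference between Taf4 and Taf4b was not tested. In the PTGR screen Taf4 had 2 and 3 insertions (ratio 1.78, 0.531 to 4.76).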

How the data were processed

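Genomic DNA next to the cassette was sequenced in 12 libraries. The authors trimmed reads with Trim Galore 0.6.0, aligned first mates to the mm10 genome with Bowtie2, removed duplicates and low mapping qualities with SAMtools 1.9, gave every insertion to the closest exon downstream of it in protein-coding transcripts, first exons left out, and deposited positions with distances and exon numbers, and gene-level counts per screen. Here unique positions at most 200 kb from the exon were counted per library. These counts equalled the deposited sums at all 9 genes except 2 in the PTGR screen (largest difference 4), where positions are listed more than once. In the repressor unsorted libraries every position is listed more than once, so repeats were dropped. The deposited tables also hold the authors' odds ratios and p-values, which were not used.

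The test of the study's methods was repeated on all genes with at least 3 sorted insertions: one-sided Fisher's exact test on summed libraries with Benjamini-Hochberg adjustment. It takes insertions as independent. edgeR 4.0.16 quasi-likelihood tests (TMM, at least 10 insertions, adjusted p below 0.05) and DESeq2 1.42.0 took the spread between libraries into account. Ratios have exact 95% intervals, and limits for 0 rest on 3 counts. Annotation was GENCODE on GRCm38. All the subunits are named with their values, a gene on the other strand only where it was called, and genes of 3 further lists where called or where a paralog of Taf4b. The members and lists were chosen with earlier results of these data known. Scripts were tested on simulated data.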

Additional observations from a re-analysis of the deposited data

Results flagged for a closer look

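Among 16 sets of 6 unsorted libraries (a subunit in 1 direction), 5 had a library flagged by Dixon's outlier ratio as far from the others. Its nominal rate of about 1 in 20 assumes normal values of equal spread. These rates come from libraries of unequal depth and often from few insertions, so the 5 flags cannot be read as an excess. Taf8 had 4.05 sense insertions per 10000 in activator unsorted replicate 1, below 4.81 to 5.22 in the others. PTGR unsorted replicate 2, the smallest unsorted library with 54088 insertions, stood apart for 3 genes on few insertions: 0.924 for Taf5 sense (5 insertions, others 0.193 to 0.459), 0.930 for Taf3 reversed (5 insertions, others 0.171 to 0.407) and 0.186 for Taf7 reversed (1 insertion, others 0.756 to 0.956). Taf2 reversed had its single insertion, 0.0485 per 10000, in activator unsorted replicate 2, and that insertion alone fixed its flag.

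Differences between screens passed the edgeR test at Taf4b and Taf5 in the main setting, with the limits given above. For sense insertions at Taf4b the activator minus PTGR difference was 4.22 on the log2 scale, and its edgeR adjusted p was below 0.05 in 8 of 16 other settings. For reversed insertions at Taf4b it was 4.60, and 9.02 against the repressor screen, a fitted value against sorted libraries that hold 0 insertions, which depends on the fit and is no bound. For reversed insertions at Taf5 the repressor minus PTGR difference was 4.52 and the activator minus repressor difference -4.85.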

How the results depend on the processing

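Each count of called subunits was recomputed under 20 alternatives, and the differences between screens under 16. In the PTGR screen in both directions and in the repressor screen with sense insertions it was 0 in all 20, and with reversed insertions in the activator screen it was 1 in all 20. With sense insertions in the activator screen it fell from 2 to 1, leaving Taf4b, with at least 10 sorted insertions, with positions within 10 bp merged, and by edgeR with TMM, without a filter and with the replicate block (1 call, Taf3 adjusted p = 0.329). DESeq2 called both. Leaving out 1 library gave 1 to 2, with Taf3 lost without activator sorted replicate 1 and Taf4b without replicate 2. With reversed insertions in the repressor screen it was 2, adding Taf7, when insertions at called genes were left out of the totals, an alternative chosen after seeing the data, and 1 to 2 on leaving out 1 library. The difference between screens with sense insertions was lost (0) with a maximum distance of 50 kb, with no filter on low counts and with the replicate block, and was 0 to 1 on leaving out 1 library. With reversed insertions it was 2 to 4 on leaving out 1 library, against 4. The sense share at Taf4b was 17.4% to 48.6% on leaving out 1 replicate. RLE in place of TMM raised the median log2 difference over all genes by 0.28 in the activator and 0.13 in the repressor screen with sense insertions, and changed the direction of no called subunit; Taf3 then passed edgeR (adjusted p = 0.0106). The causes were not tested beyond the fewer insertions or libraries that an alternative leaves.

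The labels number replicates without saying that a number marks a pair, while the methods took unsorted and sorted cells from one transduced pool. Deviations of same-numbered sorted and unsorted libraries from their group means correlated at 0.063, 0.0014 and 0.24 in the activator, repressor and PTGR screens (3475 genes, which are not independent). Of the positions in sorted replicates 1 and 2, 4.96% and 19.5% (activator), 8.17% and 8.23% (repressor) and 18.2% and 6.76% (PTGR) were in the same-numbered unsorted library, and 2.25% and 1.46%, 9.86% and 5.03%, and 0.342% and 1.79% in the other. Same-numbered libraries thus shared more in the activator and PTGR screens, with no clear difference in the repressor screen. The block changed calls over all genes with sense insertions from 116 to 100, 198 to 178 and 28 to 44. Depth limits the rarely hit genes: a count of 0 allows up to 0.935 (activator), 0.801 (repressor) and 0.251 (PTGR) sense insertions per 10000.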
